A study of Mus musculus with 10 samples.

Results

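The data concern the 10 genes Ccnd2, Ccnd3, Ccne1, Cdk2, Cdk4, Cdk6, Cdkn1a, Cdkn1b, Cdkn2c and Rb1, which code for cyclins, cyclin-dependent kinases, kinase inhibitors and the pocket protein of the G1 phase of the cell cycle. They were chosen by name, with earlier results of these data known, from the 17658 genes of a table of transcript levels in mouse B cells. The 10 libraries came from B cells of spleen and lymph node of C57BL/6 mice aged 10 weeks, enriched by magnetic removal of other cells. Wild-type mice (Nr4a1+/+) gave 1 library without stimulation and 4 libraries, lettered A to D, after 2 hours of culture with anti-IgM at 10 µg/mL, which crosslinks B cell antigen receptors. Mice labelled homozygous for the knockout of Nr4a1 (Nr4a1-/-), an orphan nuclear receptor gene also called Nur77, gave the same 1 and 4 libraries. The labels do not say whether a letter stands for a separate mouse. The p-values therefore measure only the spread between these libraries, and the spread may be technical. Each genotype has 1 unstimulated library, so in comparisons with anti-IgM the spread comes mostly from the stimulated libraries. The spread of the unstimulated state within a genotype is not known.

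Resting B cells are held outside the cell cycle. A mitogenic signal such as antigen receptor engagement leads to the synthesis of D-type cyclins, which bind and activate the kinases Cdk4 and Cdk6. These complexes begin the phosphorylation of the retinoblastoma protein, product of Rb1, which otherwise binds E2F transcription factors at their target genes. Cyclin E with Cdk2 completes that step and drives entry into S phase. Inhibitors of the Ink4 type, such as the product of Cdkn2c (p18), bind Cdk4 and Cdk6 alone, whereas p21 (Cdkn1a) and p27 (Cdkn1b) bind cyclin and kinase complexes. Cyclin D2 is the D-type cyclin best known from antigen receptor signalling in B cells.

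Levels are given as FPKM, a fragment number scaled to transcript length and to the mapped fragments of the library, which can be compared between genes. Changes are on the scale log2(FPKM + 1), which understates changes of genes near 1 FPKM. All 10 genes were in the table, and all 10 were among the 10225 genes tested, which had to average 1 FPKM or more across the libraries. Ccne1, with a mean of 1.11 FPKM, passed only through its level without stimulation. The summed FPKM of a library was 595500 and 674961 without stimulation and 557214 to 571784 after it. Relative sequencing depth, estimated from 28 low genes, lay between 0.901 and 1.08. Only genes whose values were whole multiples of a step within 10%, starting from equal depth, were kept. That choice holds the estimate near equal depth, so larger differences in depth could be missed. The level of Nr4a1 itself does not check the labels, since its transcript was abundant in both genotypes. It stood at 126 FPKM in both unstimulated libraries, and after anti-IgM it was at 806, 744, 826 and 856 FPKM in wild type and at 713, 675, 760 and 660 FPKM in knockout-labelled libraries. The log2 difference was -0.20 (limma adjusted p = 0.0432), a call lost in 11 of 21 alternatives. Every direction below is therefore between libraries as labelled.

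Before stimulation Cdkn1b and Cdk4 led the 10 genes, with Cdkn1b at 84.1 and Cdk4 at 83.0 FPKM in the wild-type library and at 94.5 and 85.4 FPKM in the knockout-labelled library. Ccnd3 followed at 39.8 and 47.5 FPKM, and Ccne1 was the lowest. After anti-IgM Cdk4 and Ccnd2 led in both genotypes, and Cdk6 came next. Cdkn1b followed Cdk6, and no library of one of these 4 genes overlapped with the next gene in the order. Rb1, Ccnd3 and Cdk2 came next in wild type, and Cdk2, Ccnd3 and Rb1 in knockout-labelled libraries, each overlapping with its neighbour. Rb1 and Cdk2, the outer genes of these 3, did not overlap: Rb1 (16.2 to 17.7 FPKM) lay above Cdk2 (14.3 to 15.3 FPKM) in wild type and below it (11.9 to 13.2 against 13.8 to 15.7 FPKM) in knockout-labelled libraries. Cdkn1a, Cdkn2c and Ccne1 closed the order, each without overlap with the gene above it.

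**Figure D1:**
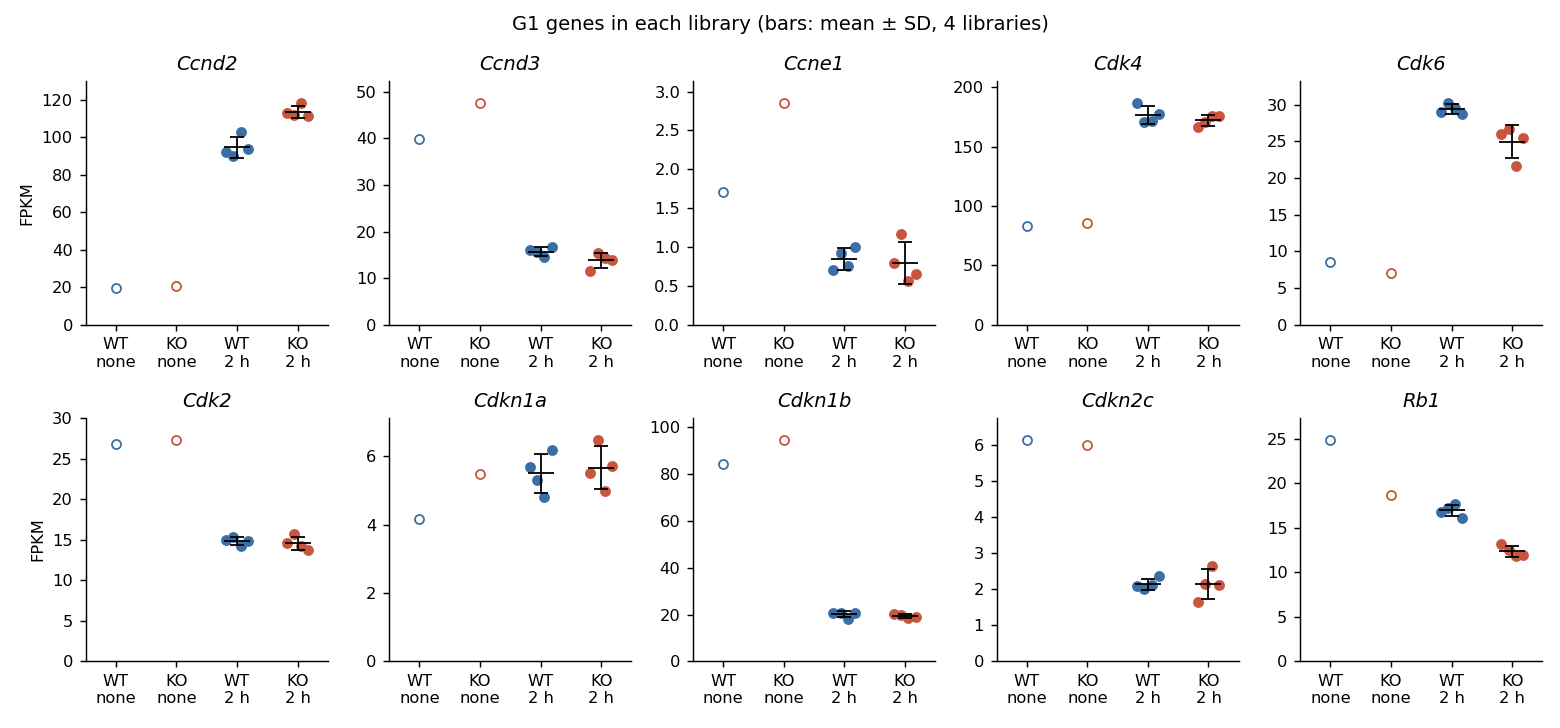
FPKM of the 10 genes in each of the 10 libraries, with open circles for the single unstimulated libraries (none), filled circles for the 4 libraries after 2 hours of anti-IgM, and bars for mean ± SD (n = 4); KO means labelled knockout. Ccnd2, Cdk4 and Cdk6 are higher after anti-IgM in every library, whereas Ccnd3, Cdkn1b, Cdkn2c, Cdk2, Rb1 and Ccne1 are lower in every library.

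The first question was how the 10 genes changed with anti-IgM. Over both genotypes 8 stimulated libraries were compared with 2 unstimulated libraries, with genotype as a term (limma). The labels give 2 hours of culture for the stimulated libraries and no culture time for the unstimulated ones. Changes with anti-IgM are therefore changes between these states, and the part of culture alone in them was not tested. To be called, a gene needed an adjusted p (Benjamini-Hochberg) under 0.05 together with a log2 change of 1 or more in either direction. Of the 10 genes 6 were called, against 20.3% of all tested genes. Ccnd2, Cdk4 and Cdk6 rose (3 of 10, against 7.94% of tested genes), and Ccnd3, Cdkn1b and Cdkn2c fell (3 of 10, against 12.4%). Cdk2 and Rb1 were lower with an adjusted p under 0.05 but did not reach the size minimum, and Cdkn1a passed neither condition. Ccne1 was not called and is given by its values alone, since it entered the test only through its level without stimulation. Of the 9 genes without Ccne1 the adjusted p alone was under 0.05 for 8, as it was for 78.9% of all tested genes, so that count says little about these genes. The median log2 change was -0.54 over the 9 genes and -0.17 over all tested genes.

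Among the cyclins, Ccnd2 and Ccnd3 moved in opposite directions. Ccnd2 (cyclin D2, chr6:127125162-127152188 of GRCm38) was at 19.4 FPKM without stimulation in wild type, and at 92.3, 90.2, 102.8 and 93.7 FPKM after it. In the knockout-labelled libraries it was at 20.9 FPKM without stimulation and at 112.9, 112.0, 118.2 and 111.3 FPKM after it. All 8 stimulated libraries lay above both unstimulated ones, at 4.90 times the unstimulated level in wild type and 5.43 times in knockout-labelled libraries. The fitted log2 change was 2.31 (SE 0.0540, limma adjusted p = 5.29e-11).

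Ccnd3 (cyclin D3, chr17:47505051-47599689) started at 39.8 FPKM in wild type and was at 16.1, 15.7, 14.5 and 16.6 FPKM after anti-IgM. In the knockout-labelled libraries it went from 47.5 FPKM to 11.6, 15.4, 14.4 and 13.95 FPKM. The stimulated libraries were all below the unstimulated ones, at 39.4% of the unstimulated level in wild type and 29.1% in knockout-labelled libraries. The fitted log2 change was -1.504 (SE 0.107, limma adjusted p = 1.67e-07). Ccnd1 (cyclin D1), the remaining D-type cyclin, was too low to be tested, at 1.25 and 0.360 FPKM without stimulation and at 0.640 FPKM or less after it.

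The makeup of the D-type cyclin transcripts turned over. Ccnd3 held 65.9% and Ccnd2 32.0% of the summed FPKM of Ccnd1, Ccnd2 and Ccnd3 in the unstimulated wild-type library, and 69.1% and 30.4% in the one labelled knockout. After anti-IgM the share of Ccnd2 in wild type was 85.3% ± 1.30 (SD, n = 4). In knockout-labelled libraries it was 89.0% ± 1.15 (SD, n = 4). The sum of the 3 genes was 60.4 and 68.8 FPKM before and between 106 and 133 FPKM after stimulation. These shares are descriptions without a test.

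**Figure D2:**
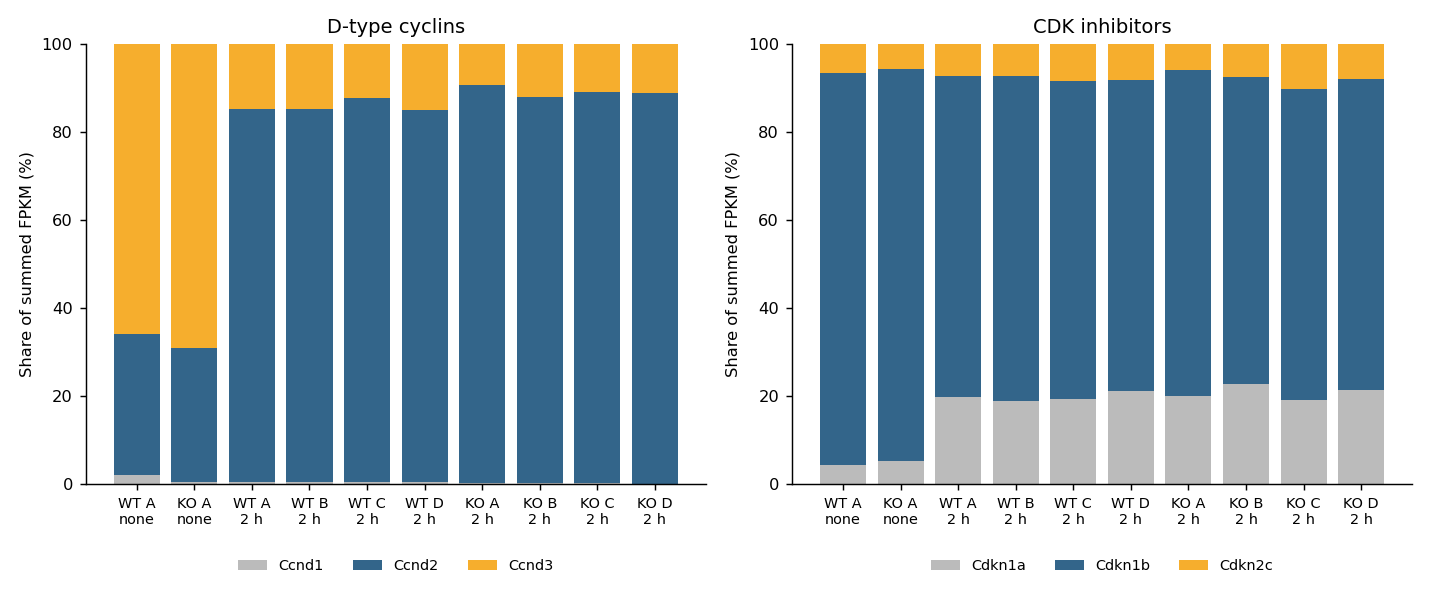
Share of each gene in the summed FPKM of the D-type cyclins (left) and of 3 kinase inhibitors (right), 1 bar per library, with "none" for no stimulation and KO for labelled knockout. Ccnd3 makes up the larger share of the D-type cyclins in both unstimulated libraries and Ccnd2 in all 8 stimulated libraries; Cdkn1b remains the largest share of the inhibitors throughout.

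Ccne1 (cyclin E1, chr7:38097984-38107490) was at 1.71 and 2.85 FPKM in the unstimulated libraries of wild type and labelled knockout. After anti-IgM it was at 0.710, 0.920, 0.750 and 1.0 FPKM in wild type and at 0.790, 1.17, 0.560 and 0.650 FPKM in knockout-labelled libraries, below its unstimulated level in every library. The log2 change of -0.84 is a description, for the reason given above, and rests on the pseudocount and on 2 unstimulated libraries that differ. It was -1.36 with a pseudocount of 0.1 and -0.32 with a pseudocount of 5. Without the unstimulated wild-type library it was -1.11, and without the unstimulated knockout-labelled library -0.56.

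The kinases divided by partner. The D-type cyclin kinases rose, while Cdk2, the partner of cyclin E, was lower. Cdk4 (chr10:127063535-127067288) was at 83.0 FPKM without stimulation in wild type and at 187, 171, 171 and 177 FPKM after it, and at 85.4 FPKM and then 166, 171, 176 and 176 FPKM in knockout-labelled libraries. The change was close to the size minimum, with a fitted log2 change of 1.04 (SE 0.0434, limma adjusted p = 2.22e-09), and at 0.85 it fell short of it after quantile normalization. The change was 1.21 after rescaling to the same sum and 1.22 with median-of-ratios scaling. Cdk6 (chr5:3341004-3531008) was lower throughout and rose more. It went from 8.51 FPKM to 29.1, 30.2, 29.6 and 28.7 FPKM in wild type and from 7.02 FPKM to 26.0, 26.7, 21.7 and 25.5 FPKM in knockout-labelled libraries (log2 change 1.68, SE 0.0663, limma adjusted p = 1.45e-09). Cdk6 supplied 9.30% and 7.60% of the summed Cdk4 and Cdk6 FPKM before stimulation and between 10.99% and 15.0% after it.

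Cdk2 (chr10:128697938-128705051) was at 26.8 and 27.3 FPKM without stimulation. The 4 stimulated wild-type libraries held 15.0, 15.3, 14.3 and 14.9 FPKM and those labelled knockout held 14.6, 15.7, 14.2 and 13.8 FPKM. All 8 lay below both unstimulated libraries, and the groups after stimulation overlapped. The fitted log2 change was -0.84 (SE 0.0526, limma adjusted p = 5.76e-08). The ratio of Cdk4 to Cdk2 FPKM was 3.09 and 3.12 before stimulation and between 10.9 and 12.7 after it.

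The promoters of the kinases and of Cdkn1b are shown because the 3 kinases differ in direction and Cdkn1b had the deepest fall of the 10 genes. The sequences are RefSeq's for GRCm38.p6, 250 bases ending at the base before the transcript start, 5′ to 3′ on the gene's strand. They are chr10:127063285-127063534 on the plus strand for Cdk4, chr5:3343643-3343892 on the plus strand for Cdk6, chr10:128705052-128705301 on the minus strand for Cdk2 and chr6:134920151-134920400 on the plus strand for Cdkn1b. The Cdk6 start lies inside the annotated gene. Capitals mark the E-box CACGTG, the core bound by Myc and its relatives, and an E2F motif searched as TTTCCCGC, TTTGGCGC, TTTCGCGC or TTTGCCGC on both strands. The motifs do not overlap each other.
Cdk4: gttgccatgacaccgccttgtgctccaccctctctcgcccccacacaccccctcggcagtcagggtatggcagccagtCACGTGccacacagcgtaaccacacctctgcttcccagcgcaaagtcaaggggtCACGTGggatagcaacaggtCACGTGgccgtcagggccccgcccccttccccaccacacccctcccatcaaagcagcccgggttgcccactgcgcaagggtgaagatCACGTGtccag
Cdk6: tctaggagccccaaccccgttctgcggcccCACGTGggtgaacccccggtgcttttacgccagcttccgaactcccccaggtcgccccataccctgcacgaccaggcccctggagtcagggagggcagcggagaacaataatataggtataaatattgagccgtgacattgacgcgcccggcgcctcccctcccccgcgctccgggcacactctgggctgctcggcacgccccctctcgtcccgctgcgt
Cdk2: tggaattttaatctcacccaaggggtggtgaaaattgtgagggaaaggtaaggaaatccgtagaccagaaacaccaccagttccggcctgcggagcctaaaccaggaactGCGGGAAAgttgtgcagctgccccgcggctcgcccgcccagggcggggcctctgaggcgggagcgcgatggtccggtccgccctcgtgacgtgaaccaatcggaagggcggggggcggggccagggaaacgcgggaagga
Cdkn1b: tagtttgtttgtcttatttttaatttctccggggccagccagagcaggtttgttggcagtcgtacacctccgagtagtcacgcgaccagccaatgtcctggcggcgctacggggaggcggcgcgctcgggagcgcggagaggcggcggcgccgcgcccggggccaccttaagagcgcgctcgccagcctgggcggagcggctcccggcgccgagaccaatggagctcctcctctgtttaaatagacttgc

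Cdk4 had 4 E-boxes, which began 172, 118, 98 and 11 bases before the transcript start. Cdk6 had 1, which began 220 bases before it. Cdk2 had 1 E2F motif, TTTCCCGC on the opposite strand, 140 bases before the start. RefSeq promoters of 300 bases, 250 before and 50 after the start, were found for 8 of the 10 genes, 11 promoters in all. Of these 11, 3 held an E-box, the third being a second start of Cdkn2c with the E-box after the start, and 1 held the E2F motif. Among all 32851 promoters of the same length, 7.15% held the E-box and 2.26% the E2F motif. The promoters of Ccnd3, Ccne1, Cdkn1a and Cdkn1b held neither motif. A match describes letters in this window only, and binding was not measured. The promoters shown were picked by direction of change, and a link between motif and direction was not tested.

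The inhibitors did not move as a group. Cdkn1b (p27, chr6:134920401-134925525) was the most abundant of the 10 genes before stimulation, with 84.1 FPKM in the wild-type and 94.5 FPKM in the knockout-labelled library. After anti-IgM it was at 20.9, 20.6, 18.1 and 20.7 FPKM in wild type and at 20.3, 19.8, 18.5 and 18.9 FPKM in knockout-labelled libraries. It thus stood at 23.8% of the unstimulated level in wild type and at 20.5% in knockout-labelled libraries, and the fitted log2 change was -2.12 (SE 0.0660, limma adjusted p = 2.82e-10). Cdkn2c (p18, chr4:109660876-109666756) was lower, at 6.15 and 6.02 FPKM without stimulation. It was at 2.08, 2.01, 2.11 and 2.36 FPKM after stimulation in wild type and at 1.64, 2.14, 2.66 and 2.11 FPKM in knockout-labelled libraries, all below the unstimulated libraries. Its fitted log2 change was -1.18 (SE 0.106, limma adjusted p = 1.14e-06), and it missed the size minimum after quantile normalization (-0.79) and with a pseudocount of 5 (-0.64).

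Cdkn1a (p21, chr17:29090979-29100722), an inhibitor known as a p53 target, was at 4.18 and 5.47 FPKM without stimulation. It was at 5.69, 5.31, 4.82 and 6.18 FPKM after it in wild type and at 5.50, 6.48, 4.98 and 5.71 FPKM in knockout-labelled libraries. The stimulated wild-type libraries all lay above their unstimulated library, while those labelled knockout lay on both sides of theirs. The fitted log2 change of 0.18 (SE 0.103) was not called (limma adjusted p = 0.127). Its limma adjusted p depended on the scale. It was 0.0313 when libraries were rescaled to the same sum (log2 change 0.34), 0.00663 under median-of-ratios scaling (0.33) and 6.62e-05 under quantile normalization (0.58). Cdkn1a made up 4.42% and 5.16% of the summed FPKM of the 3 inhibitors before stimulation and between 19.0% and 22.8% after it. The sum of D-type cyclin FPKM over Cdkn1b FPKM was 0.718 and 0.728 before stimulation and between 5.16 and 7.20 after it.

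Rb1 (chr14:73192858-73325951) was at 24.9 FPKM without stimulation in wild type and at 18.7 FPKM in its knockout-labelled counterpart. After anti-IgM it was at 16.8, 17.3, 17.7 and 16.2 FPKM in wild type and at 13.2, 12.5, 11.9 and 11.9 FPKM in knockout-labelled libraries. It was below its unstimulated level in every library of its genotype, at 68.2% of it in wild type and 66.3% in knockout-labelled libraries. The fitted log2 change was -0.54 (SE 0.0521, limma adjusted p = 2.11e-06), under the size minimum.

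**Figure D3:**
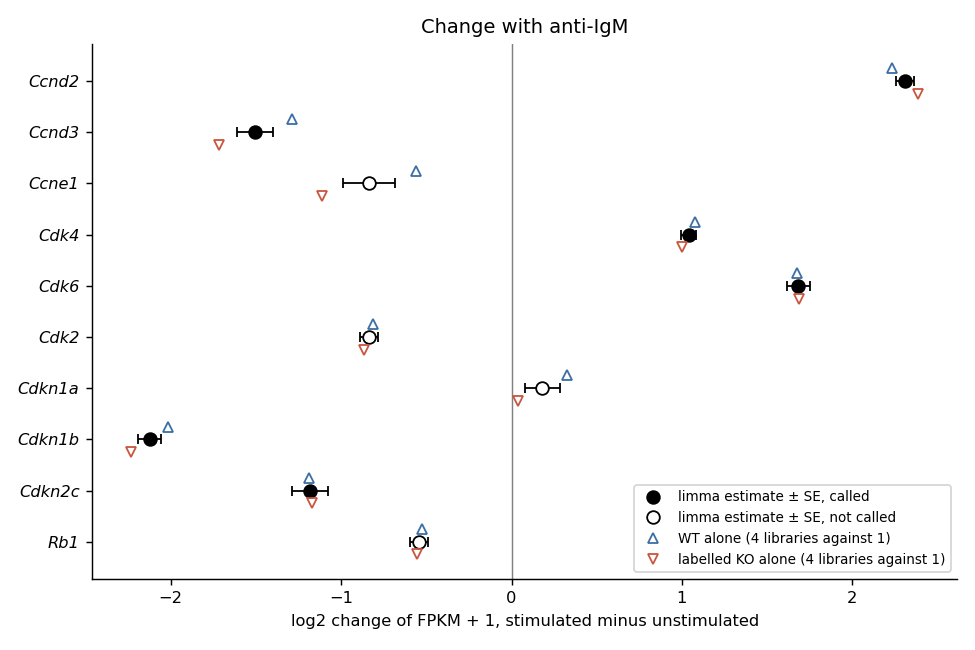
Log2 change of FPKM + 1 with anti-IgM for the 10 genes: black circles give the limma estimate over both genotypes with its SE, filled where called (Ccne1 as a description), and triangles the mean of the 4 stimulated libraries of a genotype minus its single unstimulated library. Ccnd2 (2.31) and Cdkn1b (-2.12) lie at the ends, and the genotypes are on the same side of 0 for each gene.

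Each genotype had a single unstimulated library, so responses per genotype have no error and their difference was not tested. The log2 change was 2.23 in wild type and 2.39 in knockout-labelled libraries for Ccnd2, -1.29 and -1.72 for Ccnd3, and -0.56 and -1.11 for Ccne1. It was 1.08 and 1.003 for Cdk4, 1.68 and 1.69 for Cdk6, and -0.81 and -0.86 for Cdk2. For Cdkn1a it was 0.32 and 0.039, for Cdkn1b -2.02 and -2.23, for Cdkn2c -1.19 and -1.17, and for Rb1 -0.53 and -0.56. The widest gaps were those of Ccne1 and Ccnd3. By construction a gap contains the log2 difference of the unstimulated pair. That difference was 0.51 for Ccne1 and 0.25 for Ccnd3, higher in the knockout-labelled library.

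Other genes of the same pathway were taken from lists drawn up by role, and were called by the same adjusted p and size minimum. Of all tested genes 7.94% were called higher and 12.4% lower. The adjusted p alone was under 0.05 for 78.9%, so counts at adjusted p alone say little about a list. Of the other kinase inhibitors, Cdkn2d (p19, an Ink4 inhibitor) was the 1 of 4 high enough to be tested, and it fell from 19.3 and 22.6 FPKM to 2.62 ± 0.534 FPKM in wild type and 3.30 ± 0.475 FPKM in knockout-labelled libraries (SD, n = 4 each). Its fitted log2 change was -2.48 (SE 0.123, limma adjusted p = 8.46e-09). Of 6 genes of pocket proteins and their DREAM complex partners 2 fell, Rbl2 (p130) by 2.00 and Rbl1 (p107) by 1.32 on the log2 scale, and 0 were called higher. At adjusted p alone 1 of the 6 was higher and 5 were lower. Rbl2, known as the pocket protein of resting cells, went from 20.1 and 24.3 FPKM to 4.94 ± 0.213 and 4.66 ± 0.441 FPKM (SD, n = 4 each; limma adjusted p = 3.20e-09). Of 8 tested E2F and DP factors 2 fell, E2f2 (-1.55) and the E2F partner Tfdp2 (-1.30), and 0 were called higher, while at adjusted p alone 4 were higher and 2 lower. Of 5 tested activators of the kinases, 1 fell, the phosphatase gene Cdc25b (-2.27, SE 0.136, limma adjusted p = 4.00e-08). Of the other G1 cyclins Ccne2 and Ccna2 were tested and 0 were called. No gene of 7 involved in the turnover of p27, cyclin D and cyclin E was called, and at adjusted p alone 3 were higher and 2 lower.

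Among the E2F targets of S phase and the mitosis genes, 1 passed the size minimum. Of 15 tested E2F targets of S phase, 0 rose by the size minimum and Tk1 (thymidine kinase) fell by 1.26 on the log2 scale (SE 0.172, limma adjusted p = 4.00e-05). At adjusted p alone 7 of the 15 were higher and 5 lower, with a list median of 0.13. Of all tested genes 78.9% passed at adjusted p alone in either direction, and 20.3% were called. Of 9 tested mitosis genes 0 were called at the size minimum, and at adjusted p alone 0 were higher and 3 lower (list median -0.079, against -0.17 over all tested genes). Among 9 regulators known to act on these genes 4 were called higher and 0 lower. At adjusted p alone 4 of the 9 were lower, the forkhead genes Foxo1 (-0.82) and Foxo3 (-0.47), Bcl6 (-0.77) and Stat5b (-0.44). Myc, an activator of Ccnd2 and Cdk4, had a log2 change of 3.33, the NFAT factor gene Nfatc1 2.01, the NF-kB subunit gene Rel 1.46 and Stat5a 1.29 (limma adjusted p from 4.82e-11 for Myc to 2.56e-07 for Stat5a). These changes are over both genotypes. Stat5a went from 14.1 to 43.9 FPKM in wild type and from 11.04 to 23.4 FPKM in knockout-labelled libraries. Stat5b went from 24.2 to 22.0 FPKM in wild type and from 25.7 to 15.0 FPKM in knockout-labelled libraries. Of 10 tested p53 targets 1 was called higher and 4 lower, and at adjusted p alone 5 were higher and 5 lower. Sesn2 had a change of 2.18, and Gadd45a (-1.88), Btg2 (-1.60), Trp53inp1 (-1.30) and Ccng1 (-1.19) fell.

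**Figure D4:**
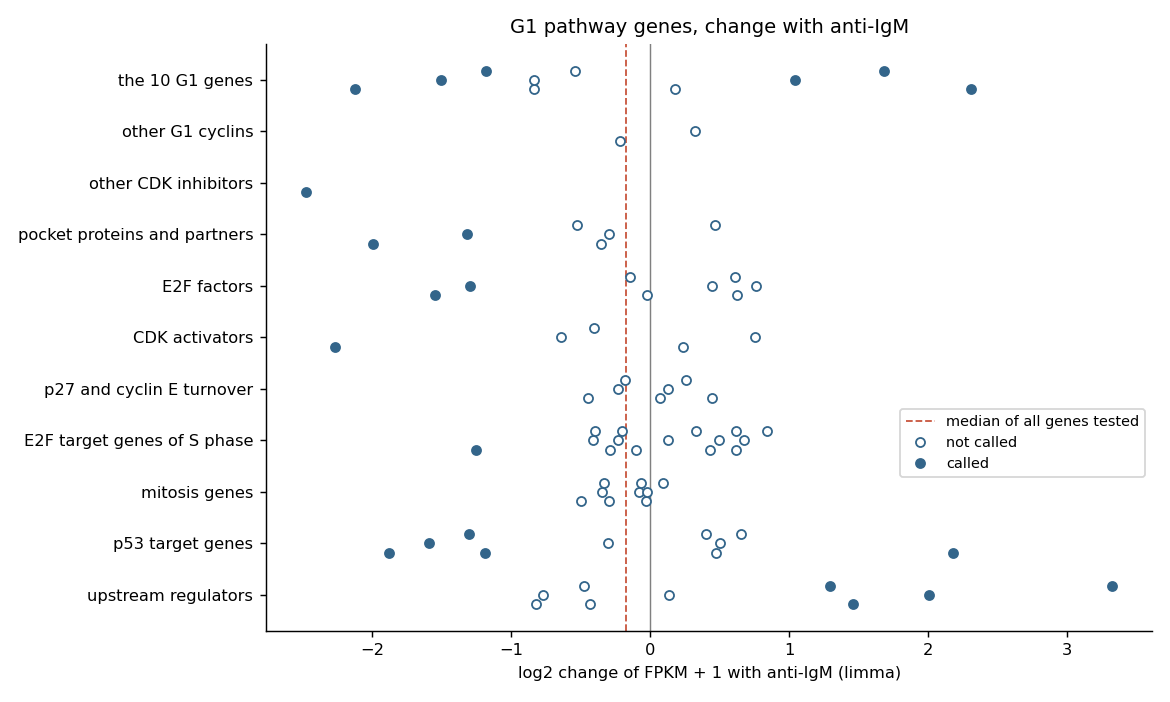
Log2 change of FPKM + 1 with anti-IgM (limma) for each tested gene of the pathway lists, 1 point per gene, filled where called; the dashed line is the median of all tested genes (-0.17). The 10 G1 genes, the inhibitors and the pocket proteins hold points beyond 1 in size. So do other lists, among them the E2F factors, the kinase activators, the S phase targets and the p53 targets. All mitosis genes lie within 1 of 0, as do the tested other G1 cyclins and the turnover genes.

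The level of the cell type markers moved with stimulation too. Of 7 B cell markers 6 fell, among them Cd79b (-2.13) and Cd22 (-1.94). The remaining one, Blk, was higher by 0.76 (limma adjusted p = 3.59e-09), under the size minimum. The summed FPKM of the 7 was 4273 and 4056 before and between 1716 and 1845 after stimulation. The erythroid markers Hba-a2, Hbb-bs and Hbb-bt fell as well (3 of 3 tested, limma adjusted p from 0.0184 to 0.0402), but the calls were lost in 6, 16 and 6 of 22 alternatives. Without the unstimulated wild-type library the limma adjusted p was 0.247, 0.361 and 0.501, with changes of -1.35, -1.09 and -0.39. Their list summed to 122.6 and 40.0 FPKM before and between 7.79 and 66.5 FPKM after. Of 8 tested myeloid markers 0 were called, and Mpo was at 0 in all stimulated libraries. At adjusted p alone 2 of the 8 were lower, where 78.9% of all tested genes passed in either direction. Among the 2 was S100a8, at 2.68 and 1.22 FPKM without stimulation and at means of 1.16 and 0.74 FPKM after it. S100a8 entered the test only through its level without stimulation, so its fall is a description. Of the T cell markers Cd3e, Cd3d, Cd3g, Cd4, Cd8a, Cd8b1 and Thy1 were at or below 0.530 FPKM in every library, while Cd5 and Lck, the 2 of the list that were tested, rose. Among plasma cell markers Prdm1 rose and Mzb1 and Sdc1 fell (3 of 5 tested), and 0 of 1 tested NK cell marker was called. The part of these shifts in the changes above was not tested. In RNA from a bulk of cells, fewer cells of a type and less RNA per cell cannot be told apart.

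The second question was whether the genotypes differed after anti-IgM, compared as 4 knockout-labelled libraries against 4 wild-type libraries (limma, called at an adjusted p under 0.05). Of the 10 genes 3 were called, against 9.72% of all tested genes. Ccnd2 was higher in knockout-labelled libraries (1 of 10, against 3.91% of tested genes), and Rb1 and Cdk6 were lower (2 of 10, against 5.81%). For the same 3 genes the libraries of the genotypes did not overlap, which was the case for 15.5% of tested genes. The median log2 difference was -0.041 over the 10 genes and -0.024 over all tested genes.

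Rb1 had the largest difference of the 10 genes. Its mean was 17.0 ± 0.646 FPKM in wild type and 12.4 ± 0.611 FPKM in knockout-labelled libraries (SD, n = 4 each), 73.0% of the wild-type level. The highest knockout-labelled library (13.2 FPKM) lay below the lowest wild-type library (16.2 FPKM). The log2 difference was -0.43 (SE 0.0441, limma adjusted p = 0.000295), and it stayed called in all 21 alternatives. The unstimulated pair, single libraries without a test, differed by about as much, with the knockout-labelled library at 75.0% of wild type (log2 difference -0.40). Over all tested genes the SD of the log2 difference in that pair was 0.38. The related Rbl1 and Rbl2 did not pass the test between genotypes, with log2 differences of -0.10 (limma adjusted p = 0.583) and -0.072 (limma adjusted p = 0.585).

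Ccnd2 was at 94.7 ± 5.58 FPKM in stimulated wild-type libraries and at 113.6 ± 3.14 FPKM in those labelled knockout (SD, n = 4 each), 120% of the wild-type level. The lowest knockout-labelled library (111.3 FPKM) lay above the highest wild-type library (102.8 FPKM, library C). The log2 difference was 0.26 (SE 0.0408, limma adjusted p = 0.00346), and the call held in all 21 alternatives. In the unstimulated pair the knockout-labelled library stood at 108% of wild type (log2 difference 0.11). Ccnd3 leaned the other way after stimulation, at 15.7 ± 0.915 and 13.8 ± 1.63 FPKM (SD, n = 4 each), but the groups overlapped and it was not called (log2 difference -0.18, SE 0.0790, limma adjusted p = 0.230). Ccnd1, untested, was at 0.490 to 0.640 FPKM in wild type and 0.200 to 0.330 FPKM in knockout-labelled libraries. The share of Ccnd2 among the D-type cyclins was 84.5% to 87.2% in wild type and 87.7% to 90.5% in knockout-labelled libraries, a description without a test.

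Cdk6 averaged 29.4 ± 0.664 FPKM in stimulated wild-type libraries against 24.95 ± 2.24 FPKM in knockout-labelled ones (SD, n = 4 each), 84.9% of the wild-type level. The log2 difference was -0.23 (SE 0.0584, limma adjusted p = 0.0369). Library C labelled knockout was the lowest, at 21.7 FPKM, and without it the difference was -0.17 with a limma adjusted p of 0.0153. The call was close to the threshold and was lost in 11 of 21 alternatives. Leaving out wild-type library A, B, C or D, or library A or D labelled knockout, gave a limma adjusted p of 0.0748, 0.0983, 0.0852, 0.0737, 0.0555 and 0.0684. In the unstimulated pair the knockout-labelled library stood at 82.5% of wild type. Cdk4, the more abundant D-type cyclin kinase, was at 176 ± 7.40 and 172 ± 4.43 FPKM (SD, n = 4 each; log2 difference -0.035, SE 0.0331, limma adjusted p = 0.605).

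The other genes did not pass the test between genotypes, and their libraries overlapped. The log2 difference was -0.048 (SE 0.0513) for Cdkn1b, -0.0095 (SE 0.0971) for Cdkn2c and 0.036 (SE 0.0843) for Cdkn1a, and it was -0.026 (SE 0.0444) for Cdk2 and -0.0502 (SE 0.113) for Ccne1, with limma adjusted p from 0.652 to 0.971. In the unstimulated pair Ccne1 (0.51), Cdkn1a (0.32), Ccnd3 (0.25) and Cdkn1b (0.17) were higher in the knockout-labelled library by these log2 differences, against a median of 0.067 over all tested genes.

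**Figure D5:**
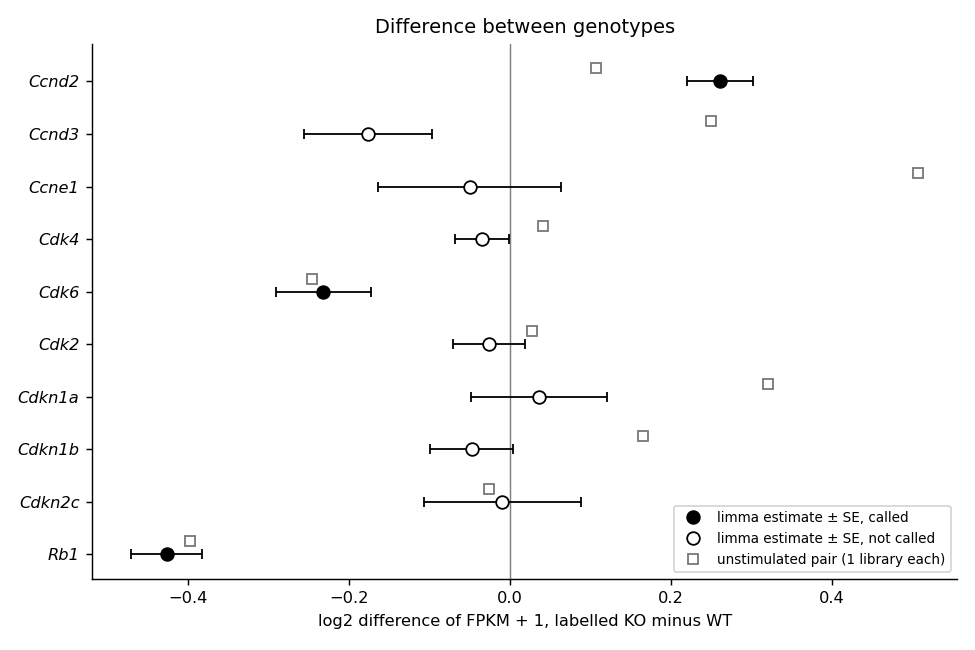
Log2 difference of FPKM + 1, labelled knockout minus wild type: circles give the limma estimate after anti-IgM with its SE, filled where called, and squares the single unstimulated pair. For Rb1 and Cdk6 the square lies beside the circle, and for Ccnd2 it lies nearer to 0. For Ccnd3, Ccne1, Cdkn1b, Cdk4 and Cdk2 it lies on the opposite side of 0.

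In the pathway lists without the upstream regulators 8 of 63 tested genes were called between genotypes (12.7%), and 11 of 72 with them (15.3%), against 9.72% of all tested genes. Among E2F targets of S phase Mcm6, a helicase subunit gene, was lower in knockout-labelled libraries (-0.33, SE 0.0458, limma adjusted p = 0.00171) and Pcna, the polymerase clamp gene, was higher (0.10, SE 0.0263, limma adjusted p = 0.0368), 2 of 15 tested. Pcna lost its call in 9 of 21 alternatives. The E2F partner gene Tfdp2 was lower (1 of 8 tested factors), as was Fbxo4, a gene of cyclin D turnover (1 of 7), with log2 differences of -0.29 and -0.24 (limma adjusted p = 0.0315 and 0.00883); the call of Tfdp2 was lost in 8 of 20 alternatives. No gene of the other inhibitors, the pocket proteins, the kinase activators or the mitosis list was called. Of the 10 tested p53 targets Fas (0.48) and Btg2 (0.16) were higher and Plk2 (-0.28) and Ccng1 (-0.15) lower, while the p53 target Cdkn1a was not called. The call of Ccng1 was lost in 15 of 21 alternatives.

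Of the 9 upstream regulators 3 were called. Stat5a, which codes for a cytokine-activated factor known to act on D-type cyclin genes, averaged 43.9 ± 1.80 FPKM in wild type against 23.4 ± 0.911 FPKM in knockout-labelled libraries (SD, n = 4 each; log2 difference -0.88, SE 0.0391, limma adjusted p = 2.45e-06). Stat5b was at 22.0 ± 0.607 and 15.0 ± 0.517 FPKM (SD, n = 4 each; log2 difference -0.52, limma adjusted p = 3.17e-05). Nfatc1 was higher, with a log2 difference of 0.25 (limma adjusted p = 0.000274). In the unstimulated pair Nfatc1 was at 32.6 and 59.9 FPKM, Stat5a at 14.1 and 11.04 FPKM and Stat5b at 24.2 and 25.7 FPKM, in wild type and labelled knockout.

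Some markers of cell types differed between genotypes. The summed FPKM of 9 myeloid markers was 46.7 to 149.5 in stimulated wild-type libraries and 28.7 to 108.5 in those labelled knockout, and 0 of 8 tested markers were called. Of 7 B cell markers 1 was called, Cd79b (-0.32, limma adjusted p = 0.000540). Lck (0.48) and Cd5 (0.24) were higher in knockout-labelled libraries, the call of Cd5 being lost in 8 of 21 alternatives. Cd3e stayed at or below 0.10 FPKM in every library, and the plasma cell factor gene Prdm1 was higher (0.44, limma adjusted p = 0.0101). The part of these shifts in the differences of Rb1, Ccnd2 and Cdk6 was not tested.

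The tested genes most like each of the 10 were found by the Pearson correlation of log2(FPKM + 1) over the 10 libraries, which all have the contrast of 8 stimulated and 2 unstimulated libraries in common. Ccnd2 was most like Gch1 and Bcl2l1 (r = 0.999 for each), Cdkn1b like Trim11 and Icosl (r = 0.999 for each), and Cdk4 like Ddx1 and Tmem185b (r = 0.998 for each). Cdk6 was most like AK152437 and Fnip1, Cdk2 like Pigk and Hdac7, and Ccnd3 like Wdr45 and Rnf5, with r from 0.997 to 0.999. Cdkn2c was most like Ttc38 and Cgrrf1 (r = 0.992 and 0.991) and Ccne1 like Slc25a23 and Fgd6 (r = 0.991 and 0.985). Rb1, which also separated the genotypes, was most like Arap2 (r = 0.987) and Ctse (r = 0.981). Cdkn1a had no gene as close, with Map2k7 at r = 0.930 and Rabggta at r = 0.898.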

How the data were processed

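Polyadenylated RNA was sequenced from the 10 libraries with a stranded kit, per the labels' protocols. The authors deposited 1 FPKM value per gene and library, with 2 decimals. STAR 2.4, RSEM 1.2.14 and the build mm10 are named in the submitters' processing notes; which annotation and filters were applied, and whether strand was used, is not given in the sources used here, so genes that overlap others may share reads. No count model was fitted, since FPKM hold no read counts. Relative depth was estimated from low genes whose values were whole multiples of a step within 10%, starting from equal depth. The estimate therefore cannot show larger differences in depth.

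Values were transformed as log2(FPKM + 1), and 10225 genes averaging 1 FPKM or more were fitted with limma 3.58.1 in R 4.3.3 (eBayes with trend, two-sided), with Benjamini-Hochberg adjustment over all of them. Both fits were also run on simulated data, in which every library had the spread of the stimulated libraries. That run therefore could not test the unknown spread of the unstimulated libraries. Older symbols, positions and promoters came from RefSeq's tables for GRCm38.p6, the assembly that mm10 names. Alternatives covered the pseudocount, the filter, the scale, the eBayes settings, library weights, the samples fitted and the letter as a block. The genes, lists and tests were chosen with earlier results of these data known. Genes named besides the 10 are Nr4a1, listed genes called in either fit (at most 4 per list and direction, largest change first), list genes at or near 0, and the 2 genes most like each of the 10. Listed genes named without a call (Ccnd1, Ccne2, Ccna2, Foxo1, Foxo3, Bcl6, Blk and S100a8, Stat5b with anti-IgM, and Rbl1 and Rbl2 between genotypes) were added after their values were seen. Proteins were not used here.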

Additional observations from a re-analysis of the deposited data

Results flagged for a closer look

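In 46 groups of 4 stimulated libraries (each of the 10 genes and each share or ratio, per genotype) the library farthest from the others was examined. In 4 groups it stood far from the other 3, where chance gives about 1 in 20 groups, or 2.30 here. All 4 involve wild-type library C, and they are not independent, since the shares and the ratio are made from the same genes. Cdkn1b was at 18.1 FPKM in that library and at 20.6 to 20.9 FPKM in the other wild-type libraries. The share of Ccnd2 among the D-type cyclins was 87.2% there and 84.5% to 84.8% in the others, and that of Ccnd3 was 12.3% against 14.7% to 15.0%. The summed D-type cyclin FPKM over Cdkn1b FPKM was 6.52 there and 5.16 to 5.35 in the others. Without wild-type library C the log2 difference of Ccnd2 between genotypes was 0.30, with a limma adjusted p of 0.000706.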

How the results depend on the processing

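Of 208 values of the 10 genes between genotypes under alternatives, 187 kept direction and call, 11 lost the call, all of Cdk6, and 10 changed direction, none of a called gene. The changes of direction were Cdk2 (0.0068 with median-of-ratios scaling, 0.012 after quantile normalization), Cdk4 (0.00052 with median-of-ratios scaling) and Cdkn2c (0.015 and 0.037 in the same order). With 1 library left out the log2 difference ran from -0.146 to 0.013 for Ccne1, from -0.021 to 0.087 for Cdkn1a and from -0.087 to 0.070 for Cdkn2c. Besides leaving out single libraries, Cdk6 lost its call with no filter, after rescaling to the same sum with or without immunoglobulin genes, without trend and with the letter as a replicate block. Of 218 values with anti-IgM, 213 kept direction and call and 0 changed direction. All tested genes called with anti-IgM numbered 2078, and 1132 with a pseudocount of 5 or 8069 with no minimum size. Their share of rises was 39.1%, and 50.7% after rescaling to the same sum, 53.8% with median-of-ratios scaling, 51.2% after quantile normalization and 50.5% without immunoglobulin genes; between genotypes it was 40.2%, and 57.2% and 52.2% with median-of-ratios and quantile scaling. The median change of all tested genes with anti-IgM moved from -0.17 to -0.031, -0.017 and -0.0022 with the first 3 scalings. The letters are not shown to pair libraries: the deviations of same-lettered stimulated libraries correlated between -0.122 and 0.045, and 1 of 8 libraries correlated best with its own letter. With the letter as a replicate block 740 genes were called between genotypes instead of 994, and 2 of the 10 genes instead of 3. With the letter A libraries alone 6 of the 10 genes were called with anti-IgM, as with all 10 libraries. FPKM hold no total depth, so the counting error of Ccne1 and Ccnd1, near or below 1 FPKM, is unknown. No alternative with a mean of at least 5 FPKM could be had for Ccne1 and Cdkn2c. The cause of these changes was not tested.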
